A study of Saccharomyces cerevisiae with 8 samples.

Results

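Delta repeats are the long terminal repeats that flank the yeast retrotransposons Ty1 and Ty2, and most of those in the genome stand alone after the body of the element has been lost. Ty1 inserts mainly upstream of genes transcribed by RNA polymerase III (Pol III), drawn there by contact between its integrase and the polymerase, so many deltas lie close to tRNA genes. Pol III is recruited by TFIIIB, with its subunits Brf1 and Bdp1, and TFIIIB is placed by TFIIIC, which binds the promoter inside the tRNA gene and has Tau95 as a subunit. Pol III itself was followed through C160, its largest subunit.

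The regions described here are the features of an intergenic array whose name holds the word DELTA, taken by name alone. There were 204 of them among 6399 features. Their names give the chromosome by letter, the arm (L or R), the strand of the repeat (W or C) and a number, as in YERWDELTA21-2. A final number after a hyphen is read here as a piece of the same region, since names of tRNA features carry it too, and without it 188 repeat names were left. Names with a final letter, as in YHRCDELTA14-A, were kept as separate names. No sequence or position of a delta was used here, so which member lies beside a tRNA gene is not known and the names could not be checked against the genome. Whether a feature holds the named repeat itself or the stretch beside it is likewise not known.

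The study measured the binding of Bdp1, Brf1, C160 and Tau95 in Saccharomyces cerevisiae by chromatin immunoprecipitation and 2-colour arrays. The labels give the tags as 13myc on Bdp1, Brf1 and Tau95 and 3HA on C160. Cells of every group grew exponentially in rich YPD medium and were fixed either 30 min after rapamycin, which inhibits TOR kinase signalling, was added to 0.2 ng per µl or untreated (0 min). This gives 8 groups of 1 deposited sample, called arrays here. On each array the labels put DNA from the wild type in Cy5 and DNA from a maf1 deletion strain, which lacks the general Pol III repressor, in Cy3. The deposited value is a logarithm, read as base 2, and its zero is set, per the design text, at loci without the Pol III machinery. It behaves as a relative brightness of immunoprecipitated DNA rather than as a ratio of the strains, as tRNA-named features had medians of 2.01 to 3.28 on all 8 arrays. Which strain it reflects is unknown, and nothing is said here about the deletion. With 1 array per group, differences have no replicate check and no p-value. A low value cannot tell fewer cells with a bound protein from less protein bound per cell.

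Of the 204 members, 188 had a value on all 8 arrays, 12 lacked a value on some arrays and 4 (YDRCDELTA9-0, YDRWDELTA14, YNLCDELTA1-1 and YNLCDELTA1-2) had none. Between 5760 and 6282 features had a value per array, and the fewest were on the Brf1 array at 30 min. The medians of all features ran from -0.08 to 0.17. Delta repeats resemble each other in sequence, to a degree not examined here. The sources used here do not give the DNA spotted for each region. Signal from another copy thus cannot be told apart from signal of the named one.

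The first question was how much of the Pol III machinery was found at delta regions. They were brighter than most of the genome for all 4 proteins and dimmer than tRNA genes. The median of delta features was 1.60 at 30 min (quartiles 0.37 and 2.89, n = 194) and 1.70 at 0 min (0.36 and 2.83, n = 196) for Bdp1. For Brf1 it was 0.97 at 30 min (-0.18 and 2.15, n = 195) and 1.29 at 0 min (0.25 and 2.58, n = 200). C160 gave 0.95 at 30 min (-0.12 and 2.36, n = 199) and 0.98 at 0 min (-0.23 and 2.45, n = 200). Tau95 gave 1.08 at 30 min (0.08 and 2.20, n = 198) and 1.05 at 0 min (-0.14 and 2.09, n = 200). Bdp1 thus gave the highest delta median of the 4 proteins at both times. The same held for tRNA-named features (2.95 at 30 min and 3.28 at 0 min), and the arrays differ in their zero and spread.

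Features named for tRNA genes (n = 241 to 245 per array) were brighter on each array. Their medians at 30 min were 2.95 with Bdp1, 2.32 with Brf1, 2.45 with C160 and 2.32 with Tau95. At 0 min they were 3.28, 3.06, 2.95 and 2.01 in that order. Features named for open reading frames (ORFs) were split by the next gene at higher coordinates in the RefSeq gene table (assembly R64), which matched 5525 of 5806 of them. A feature was read as the region on that side: at 0 min, Bdp1 had a median of 2.91 where only that neighbour was a tRNA gene (n = 211) and 0.14 where only the other one was (n = 191). This reading rests on the same arrays, so the brightness of the list with a tRNA gene next is not a separate result. The 230 ORF-named features with a tRNA gene next had medians from 1.76 to 2.94 over the 8 arrays. The 5295 with another gene next had medians from -0.20 to 0.03. The delta median lay between those of the last 2 lists on each of the 8 arrays.

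**Figure D1:**
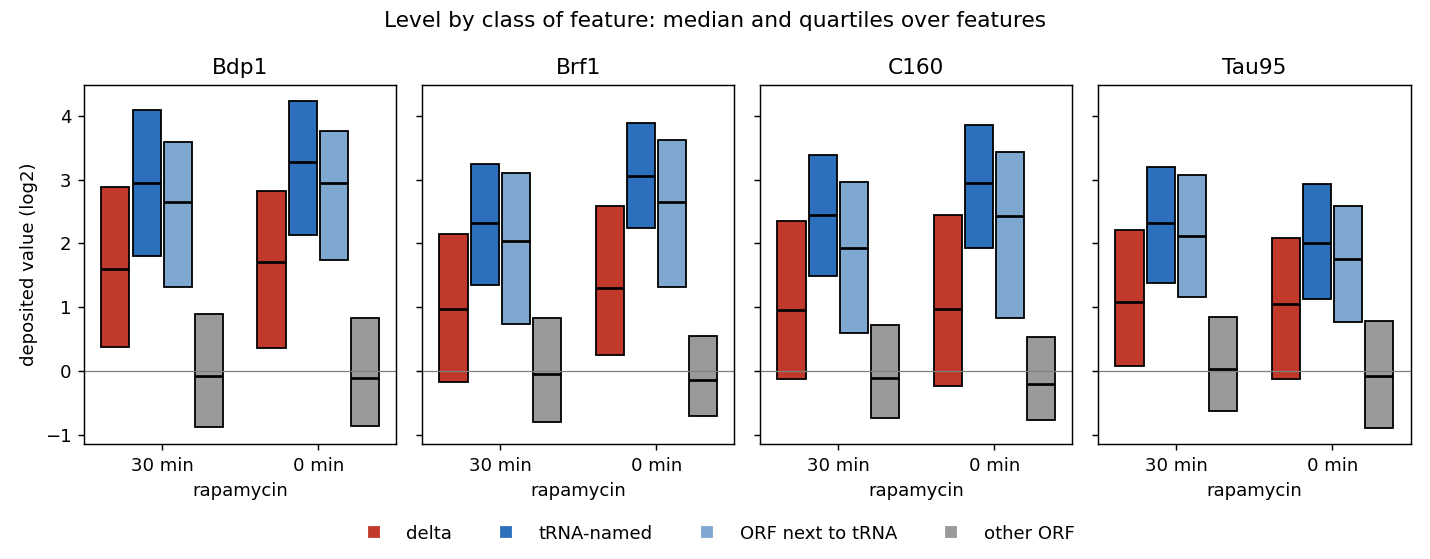
Deposited log2 values of delta features, tRNA-named features, ORF-named features with a tRNA gene next and other ORF-named features, in 1 panel per protein with 30 min of rapamycin left of 0 min. Boxes span the quartiles over features and the line is the median; delta medians run from 0.95 to 1.70 and lie between other ORF-named and tRNA-named features in each panel.

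A value of 1 or more, which is 2-fold over the zero, was found at 119 delta features for Bdp1 at 30 min and at 121 at 0 min, where 29.5% and 28.8% of all features reached it. For Brf1 the numbers were 97 at 30 min and 117 at 0 min, against 27.8% and 22.7% of all features. C160 reached it at 97 delta features at 30 min and 99 at 0 min, against 25.4% and 22.9%. Tau95 reached it at 105 at 30 min and 101 at 0 min, against 27.9% and 25.9%. As a share of the delta features with a value, these counts come to between 48.7% and 61.7%.

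The class was mixed rather than evenly of medium brightness. Of the 188 members with all values, 74 (39.4%) were at 1 or more on all 8 arrays, where 16.5% of all features were, and 69.3% of tRNA-named features. A further 47 (25%) stayed below 1 on all 8 arrays, where 54.8% of all features and 3.32% of tRNA-named features did. The remaining 67 passed it on some arrays. At 0 min, 38 delta features (19.4%) were at or above the tRNA-named median with Bdp1, 39 (19.5%) with Brf1, 35 (17.5%) with C160 and 53 (26.5%) with Tau95. The shares of all features there were 5.82%, 5.61%, 5.64% and 10.3%. At or below the median of other ORF-named features were 33 (16.8%), 34 (17.0%), 52 (26.0%) and 51 (25.5%) in that order, against 44.9%, 44.8%, 45.6% and 45.9% of all features. At 30 min the share at or above the tRNA-named median was 23.7%, 21.0%, 23.1% and 22.7%, against 6.77%, 9.22%, 8.80% and 8.69% of all features, while that median itself was lower for Bdp1, Brf1 and C160.

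**Figure D2:**
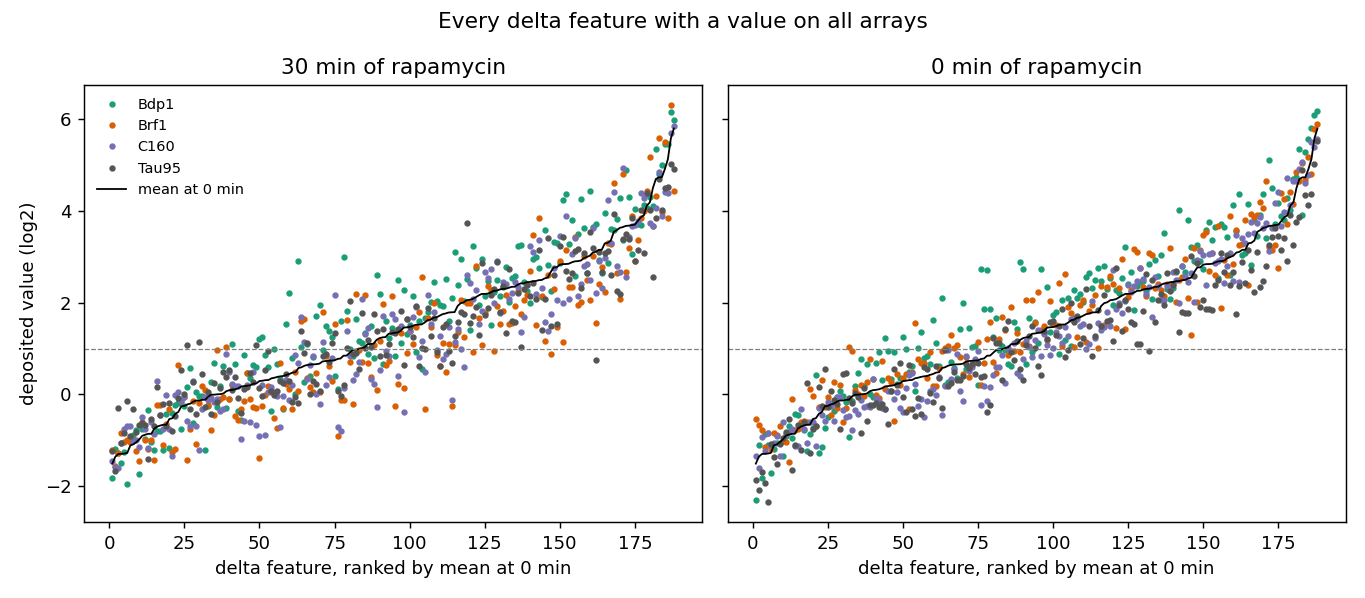
Each of the 188 delta features with a value on all arrays, ranked by the mean of its 4 values at 0 min (black line, the same in both panels), with the log2 value for each protein as a dot, at 30 min in the left panel and 0 min in the right. The mean climbs from below -1 to above 5, and 74 features lie above the dashed line at 1 on all 8 arrays.

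The order of the members was much the same on all arrays. Over the 28 pairs of arrays, Pearson's r across delta features was 0.83 to 0.97 and Spearman's rho 0.81 to 0.96 (n = 191 to 200). These points share the spotted DNA and its copy number, and they are not independent replicates.

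Among the 188 members with a value on all 8 arrays, the 6 with the highest mean at 0 min lay on chromosomes V (letter E), VII (G), XIV (N) and X (J). YERWDELTA21-2 had 5.98 with Bdp1, 4.43 with Brf1, 5.86 with C160 and 4.91 with Tau95 at 30 min, and 6.18, 5.90, 5.58 and 5.54 at 0 min. YERWDELTA21-1 had 6.15, 6.31, 5.69 and 5.03 at 30 min and 6.10, 5.79, 5.40 and 5.03 at 0 min. The third piece of that region, YERWDELTA21-0, had 4.80, 5.60, 4.85 and 4.69 at 30 min and 3.92, 5.05, 5.07 and 4.89 at 0 min. All 3 pieces of this region thus stood above the tRNA-named median for every protein at both times.

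YGRWDELTA26 had 5.46 with Bdp1, 3.85 with Brf1, 4.39 with C160 and 4.53 with Tau95 at 30 min, and 5.80, 4.81, 5.51 and 4.38 at 0 min. For YNLCDELTA1-0 the values were 5.45, 5.50, 4.42 and 4.51 at 30 min and 5.56, 5.18, 4.78 and 4.13 at 0 min. YJLCDELTA7 had 5.01, 3.98, 3.89 and 4.01 at 30 min and 5.29, 4.67, 4.62 and 4.35 at 0 min. YGRWDELTA26 and YJLCDELTA7 were lower at 30 min for Bdp1, Brf1 and C160, while YNLCDELTA1-0 was not lower for Brf1.

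Members that lack an array stand outside this ranking, and 4 of them are named here after their values were seen. YDRWDELTA25 had 6.44 with Bdp1, 5.89 with Brf1 and 6.38 with C160 at 30 min, and 6.30, 6.39 and 5.99 at 0 min, with 5.54 for Tau95 at 0 min. It was the highest delta feature on the Bdp1 and C160 arrays at both times and on the Brf1 and Tau95 arrays at 0 min. YNLCDELTA1-3, which also lacks Tau95 at 30 min, had 4.71, 4.82 and 4.62 with the other proteins at 30 min. At 0 min it had 5.71, 4.83, 5.03 and 4.69, which would place it among the 6 brightest.

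At the other end, among members with all values, YDRCDELTA3 had -1.83 with Bdp1, -1.21 with Brf1, -1.46 with C160 and -1.24 with Tau95 at 30 min, and -2.29, -0.53, -1.35 and -1.87 at 0 min. YHRCDELTA10 had -1.20, -1.57, -1.59 and -1.68 at 30 min and -1.10, -0.66, -1.60 and -2.08 at 0 min. For YDRWDELTA24 the values were -1.27, -1.27, -1.60 and -0.30 at 30 min and -1.82, -0.78, -0.93 and -1.68 at 0 min. YGLWDELTA4 had -1.49, -0.84, -1.07 and -1.07 at 30 min and -0.86, -1.16, -1.23 and -1.94 at 0 min. None of these 4 regions reached zero on any array, which is where loci without the Pol III machinery were set. Dimmer still at 0 min was YCRWDELTA12, which lacks Bdp1 at 30 min. It had -1.71, -1.65 and -1.30 with Brf1, C160 and Tau95 at 30 min, and -1.85, -1.85, -1.37 and -2.54 with the 4 proteins at 0 min. YERWDELTA17 lacks both Bdp1 arrays and Brf1 at 30 min, and had -2.41 with C160 and -2.56 with Tau95 at 30 min. At 0 min it had -2.27 with Brf1, -3.58 with C160 and -2.40 with Tau95. Both lay below zero on each array that measured them.

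**Figure D3:**
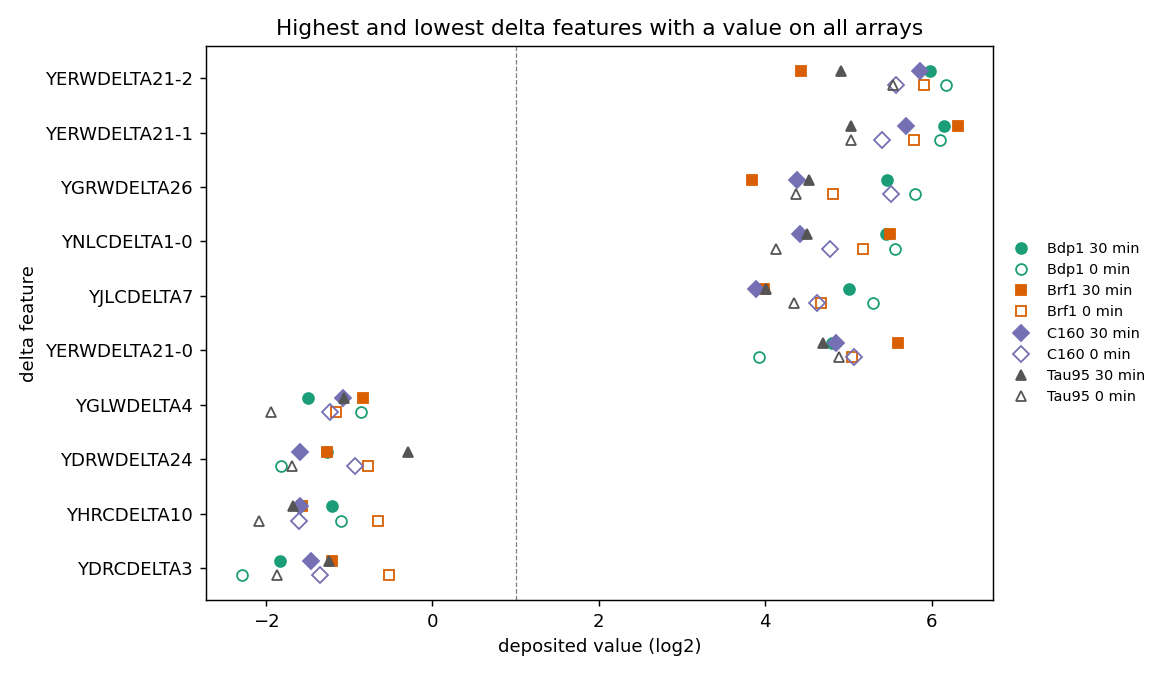
Deposited log2 values of the 6 delta features with the highest and the 4 with the lowest mean at 0 min among the 188 members with a value on all 8 arrays, filled symbols for 30 min above open symbols for 0 min, 1 shape and colour per protein. The 6 bright features stay above 3.8 on all 8 arrays and the 4 dim ones below 0.

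Pieces of 1 region gave an idea of how far a value holds along it. There were 9 repeat names with numbered pieces, 25 features in all, and 4 names had 3 or more pieces. The 5 pieces of YARCDELTA8 ranged from 2.82 to 4.29 for Bdp1 at 30 min and from 2.67 to 4.51 at 0 min. For Brf1 they ranged from 1.95 to 3.47 at 30 min and from 1.30 to 3.14 at 0 min. The 3 pieces of YERWDELTA21 ranged from 4.80 to 6.15 for Bdp1 at 30 min and from 3.92 to 6.18 at 0 min. In YiRCDELTA6, where the lower-case i stands for chromosome letter I, the pieces lay on both sides of zero at 30 min, from -0.28 to 2.14 for Bdp1 at 30 min and from 0.56 to 2.41 at 0 min. The 2 measured pieces of YNLCDELTA1 were at 4.71 and 5.45 for Bdp1 at 30 min and at 5.56 and 5.71 at 0 min.

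Levels also differed between chromosomes. At 0 min the chromosome median of delta features for Bdp1 ran from 0.28 on chromosome letter P to 2.94 on letter A, and for Brf1 from 0.00 on P to 2.58 on E. For C160 it ran from -0.29 on F to 2.58 on A, and for Tau95 from -0.18 on P to 2.59 on A. Of the 10 members on letter A, 5 are pieces of YARCDELTA8, so they are not separate regions. The number of delta features per chromosome went with the number of tRNA genes in the gene table, with Pearson's r of 0.54 and Spearman's rho of 0.63 over 16 chromosomes. Chromosome length is shared by both counts and was not removed. Letter E (chromosome V) had the most delta features, 21, and 20 tRNA genes, and letter G (chromosome VII) had 16 delta features and 36 tRNA genes.

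Members on the C strand had a median of 1.59 with Bdp1, 1.19 with Brf1, 1.14 with C160 and 1.39 with Tau95 at 30 min (106 features, 103 with a value). Members on the W strand had 1.61, 0.68, 0.50 and 0.85 (98 features, 97 with a value). At 0 min the C strand had 1.85, 1.52, 1.09 and 1.24 and the W strand 1.63, 1.01, 0.77 and 0.82. Values for C160, Brf1 and Tau95 were thus higher on the C strand at both times, with quartiles of the whole class more than 2 units apart. Most numbered pieces, such as the 5 of YARCDELTA8, are on the C strand and were counted singly, so a few regions weigh more there. The arms gave no such order. Brf1 at 30 min had a median of 0.73 on the left arm and 1.09 on the right arm. At 0 min the left arm had 2.02, 1.41, 0.97 and 1.13 for the 4 proteins and the right arm 1.57, 1.19, 0.98 and 0.99.

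Among repeats of other Ty families, sigma (Ty3, n = 13) and tau (Ty4, n = 19 to 21) features were of like brightness for Bdp1, with medians of 1.52 and 1.59 at 30 min and 1.57 and 1.97 at 0 min. For C160 delta features had 0.95 at 30 min and 0.98 at 0 min, sigma features 0.51 and 0.42, and tau features 1.40 and 1.13. These lists are small, and no difference between the families was tested.

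The second question was whether rapamycin altered the occupancy of delta regions. Brf1 was lower at most of them, and Tau95 had the median change of all features. Bdp1 and C160 had median changes near zero, -0.06 and 0.01, which lay a little below those of all features. The change of a feature is its value at 30 min minus its value at 0 min. Over all features its median was 0.04 with Bdp1, -0.03 with Brf1, 0.09 with C160 and 0.19 with Tau95, and changes of delta features are read against these.

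For Brf1, the TFIIIB subunit that contacts the polymerase, the change of delta features had a median of -0.44, with quartiles of -0.92 and 0.07 (n = 195). This is a ratio of 0.737. Brf1 was lower at 138 of them (70.8%), against 52.1% of all features. The median change was -0.73 for tRNA-named features (n = 241), -0.55 for ORF-named features with a tRNA gene next (n = 227) and 0.01 for other ORF-named features (n = 4709). Sigma features had -0.45 (n = 13) and tau features -0.59 (n = 19), so the lower Brf1 was not particular to delta features. Omega features, named for repeats of another Ty family, had 0.03 (n = 10). A value at least 2-fold lower was found at 41 delta features (21.0%), against 7.10% of all features, and one at least 2-fold higher at 5 (2.56%), against 5.28%. With ORF-named features given equal spread on each array, the median was -0.79 and the number 2-fold lower 81. The tRNA-named median was then -1.54 and that of all features -0.05, and the share of all features 2-fold lower was not computed for this setting. The Brf1 array at 30 min lacked 639 features, the most of all, and whether this has a part in the changes was not tested.

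YLRCDELTA18 had the lowest Brf1 change, -2.47, with -0.24 at 30 min and 2.22 at 0 min, while its C160 values were 1.65 and 1.41. At YKLWDELTA3 Brf1 had -0.26 at 30 min and 2.18 at 0 min, a change of -2.44. C160 had -0.12 at 30 min and 1.23 at 0 min there, a change of -1.35 that is also among the 3 lowest for C160. YMLWDELTA6 had 1.15 at 30 min and 3.54 at 0 min for Brf1, a change of -2.39. At the same region Tau95 had 3.42 at 30 min and 1.86 at 0 min, a change of 1.56, so the 2 factors moved in opposite directions there. The highest Brf1 changes were at 2 pieces of 1 region, YARCDELTA8-4 (3.47 at 30 min and 2.01 at 0 min, a change of 1.46) and YARCDELTA8-3 (2.60 and 1.30, 1.31), and at YNLWDELTA4 (2.18 and 0.85, 1.33).

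For C160 the change of delta features had a median of 0.01 with quartiles of -0.38 and 0.31 (n = 199), and 96 of 199 features (48.2%) were lower, against 42.1% of all features. The median was -0.34 for tRNA-named features (n = 245), -0.30 for ORF-named features with a tRNA gene next (n = 229) and 0.11 for other ORF-named features (n = 5172). It was 0.03 for sigma (n = 13), -0.10 for tau (n = 21) and 0.21 for omega features (n = 10). A 2-fold lower value was found at 9 delta features (4.52%), against 2.17% of all features, and a 2-fold higher value at 9 (4.52%), against 3.36%. The sign of the delta median depends on the zero point, as it was -0.06 with arrays centred on all features, and 13 were then 2-fold lower and 9 higher. With equal spread it was -0.10, with 20 lower and 8 higher. The shares of all features past 2-fold were not computed for these settings.

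The lowest C160 change was at YERWDELTA12, -1.47, with -0.38 at 30 min and 1.09 at 0 min, and the Brf1 change there was -1.05 and the Bdp1 change -0.08. After YKLWDELTA3 came YCRCDELTA14, with -0.89 at 30 min and 0.43 at 0 min, a change of -1.32. C160 was higher at YCRCDELTA6-0, with 2.07 at 30 min and 0.25 at 0 min, a change of 1.82. YMRWDELTA19-1 had 1.70 at 30 min and 0.18 at 0 min, a change of 1.52, and YHLWDELTA2 had 2.17 and 0.94, a change of 1.23. None of these 3 was above 1 for C160 at 0 min.

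For Bdp1, the other TFIIIB subunit, the median change of delta features was -0.06 (quartiles -0.28 and 0.19, n = 194), and 114 (58.8%) were lower, against 45.2% of all features. The median was -0.21 for tRNA-named features (n = 245), -0.23 for ORF-named features with a tRNA gene next (n = 225) and 0.07 for other ORF-named features (n = 4865). A 2-fold lower value was found at 6 delta features (3.09%), against 2.72% of all features, and a 2-fold higher one at 1 (0.515%), against 0.777%. Both 2-fold shares are near those of all features.

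YELWDELTA5 had 0.12 at 30 min and 2.73 at 0 min for Bdp1, a change of -2.61. Its other values were near or below zero at both times, with -0.90, -0.71 and 0.08 for Brf1, C160 and Tau95 at 30 min and 0.20, -0.22 and 0.38 at 0 min. The high Bdp1 value at 0 min was thus met by no other protein. YGLWDELTA7 (-0.56 at 30 min and 1.22 at 0 min, -1.78) and YNRCDELTA9 (-0.32 and 0.85, -1.16) were the next lowest. Higher for Bdp1 were YFRWDELTA10 by 1.06 (-0.22 at 30 min and -1.28 at 0 min), YOLCDELTA1 by 0.97 (-0.18 and -1.15) and YiLCDELTA5-1 by 0.97 (3.24 and 2.28).

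For Tau95, in TFIIIC, the median change of delta features was 0.19 (quartiles -0.14 and 0.57, n = 198), the same as the 0.19 of all features, and 72 (36.4%) were lower, against 35.0% of all features. The median was 0.26 for tRNA-named features (n = 245), 0.31 for ORF-named features with a tRNA gene next (n = 228) and 0.18 for other ORF-named features (n = 5161). A 2-fold higher value was found at 15 delta features (7.58%), against 6.87% of all features, and a 2-fold lower one at 5 (2.53%), against 1.81%. These shares are again near those of all features.

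YELWDELTA2 had the highest Tau95 change, 2.12, with 3.73 at 30 min and 1.61 at 0 min, and C160 was also higher there, by 1.11. YOLCDELTA3 had 2.89 at 30 min and 1.09 at 0 min for Tau95, a change of 1.80. The lowest were YJRWDELTA14, with 0.75 at 30 min and 2.37 at 0 min (-1.62), YLRCDELTA26, with 0.62 and 1.85 (-1.23), and YDRWDELTA26, with 2.56 and 3.75 (-1.19). YDRWDELTA26 was lower for all 4 proteins, with 4.10, 3.67 and 3.67 for Bdp1, Brf1 and C160 at 30 min and 4.74, 4.84 and 4.65 at 0 min.

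**Figure D4:**
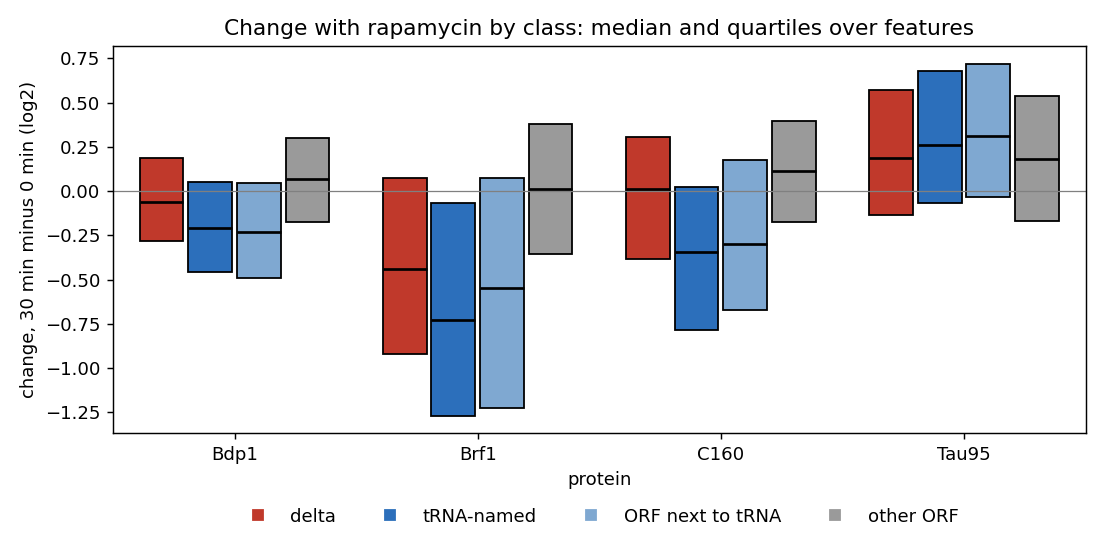
Change in log2 value with rapamycin (30 min minus 0 min) for each protein, over delta features, tRNA-named features, ORF-named features with a tRNA gene next and other ORF-named features, with boxes for quartiles and lines for medians over features. Delta medians are -0.06 with Bdp1, -0.44 with Brf1, 0.01 with C160 and 0.19 with Tau95, and for Bdp1, Brf1 and C160 they lie between tRNA-named and other ORF-named features.

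As delta features are dimmer than tRNA-named ones, the change was also set against the level. The level was taken from the 0 min array of another protein (Bdp1, or Brf1 for the Bdp1 change), and this comparison was added after the data were seen. For C160, the median change of delta features was 0.16 where Bdp1 was below 1 (n = 74), -0.07 between 1 and 2.5 (n = 53), -0.22 between 2.5 and 4 (n = 48) and -0.41 at 4 or more (n = 20). For tRNA-named features it was 0.12, -0.07, -0.45 and -0.67 (n = 29, 47, 94 and 75). Median C160 changes in the upper bands were thus below zero for delta features, as for tRNA-named features. Single bright delta features went either way, with quartiles of -0.75 and 0.07 at 4 or more. Pieces of the same region were counted singly. The first 2 bands gave nearly equal medians for both classes.

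For Brf1 the delta medians were -0.37, -0.49, -0.57 and -0.41 from the dimmest band to the brightest (n = 72, 53, 48 and 20). The tRNA-named medians were -0.30, -0.43, -0.82 and -0.81 (n = 26, 47, 94 and 74). Delta medians were below zero in every band, and from 2.5 upward they were closer to zero than those of tRNA-named features. For Bdp1 all 4 delta medians lay between -0.10 and -0.02, the brightest band with 17 features. For Tau95 they were 0.30, 0.05, 0.25 and -0.01, with 18 features in the brightest band. The quartiles of both classes overlapped in every band and protein, and no gap between the classes was tested.

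**Figure D5:**
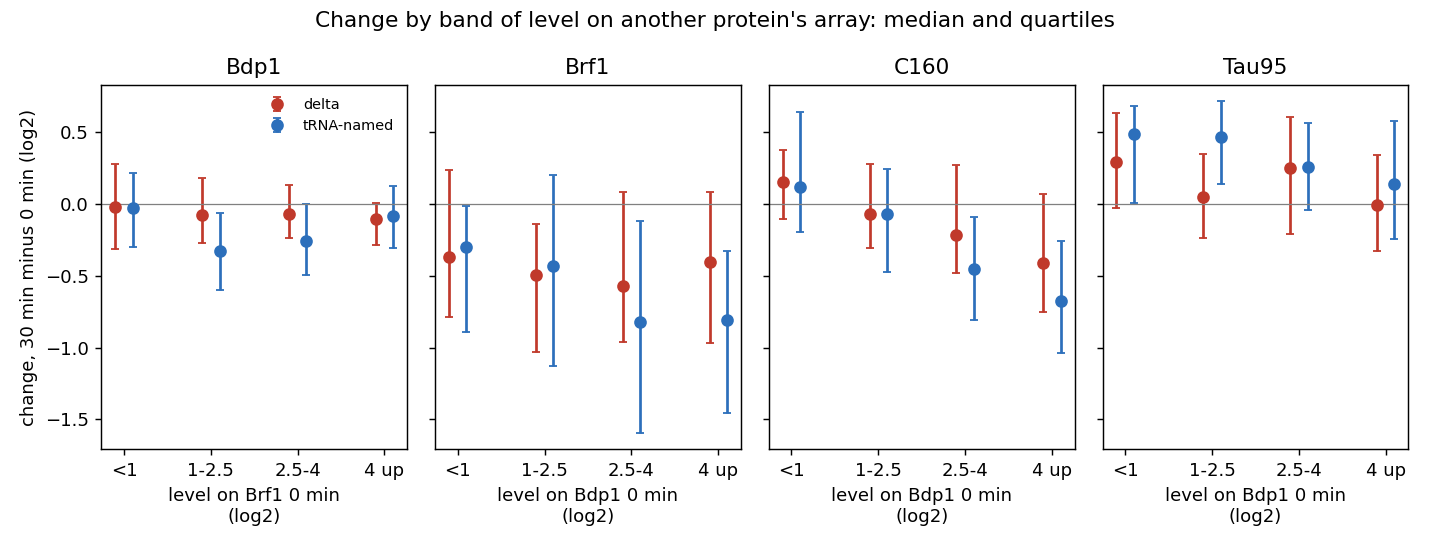
Median change in log2 value (30 min minus 0 min) of delta and tRNA-named features, with quartiles as bars, within bands of the log2 level on the 0 min array of another protein. For C160 the delta medians run from 0.16 in the dimmest band to -0.41 in the brightest; for Bdp1 they stay between -0.10 and -0.02.

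Taking the proteins together, 51 of the 188 delta features with all values (27.1%) were lower for Bdp1, Brf1 and C160 alike, against 14.8% of all features. Among tRNA-named features 48.1% were (n = 241), among ORF-named features with a tRNA gene next 42.4% (n = 224) and among other ORF-named features 11.4% (n = 4470). Of these 51, 28 had more Tau95 at 30 min, or 14.9% of the delta features, against 7.85% of all features and 30.7% of tRNA-named ones. Among all features, 431 of the 813 lower for those 3 proteins had more Tau95, a part near the 28 of 51. YGRWDELTA26 was such a region, with changes of -0.34 with Bdp1, -0.97 with Brf1, -1.13 with C160 and 0.15 with Tau95. Its Tau95 change was below the median of all features, 0.19.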

How the data were processed

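The authors deposited 1 table of log2 values with 1 column per sample. Per the labels' design text, each immunoprecipitation was repeated in triplicate and scaled so that loci without Pol III had a median of 1. The sources used here give no other steps. Each group has 1 column of values, so any spread between the triplicates is not seen here. Base 2 was read from whole-number steps of the antilogs, clear on the Brf1 array at 30 min (strength 0.93, against 0.17 for base e and for base 10) and 0.22 or less elsewhere.

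Features were sorted by name with Python 3.11.15 and pandas 2.3.3. ORF-named features took their next gene from the RefSeq table. Medians, quartiles and counts at a log2 size of 1 were computed per array and per change, and scripts were tested on simulated data. The members and lists were chosen with earlier results of these data known. Named members are the 6 highest and 4 lowest by mean at 0 min among those with all values and, per protein, the 3 highest and 3 lowest changes. Alternatives were other zero points, equal spread, complete members, means and other thresholds. The planned search for delta ends beside tRNA genes was not run, as no sequence was used here.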

Additional observations from a re-analysis of the deposited data

Results flagged for a closer look

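The median change of delta features had opposite signs for some pairs of proteins, and none of these differences was tested, as each protein has 1 array per time. Over the same features, the change of Brf1 minus that of Tau95 had a median of -0.74 (n = 193), and Bdp1 minus Tau95 had -0.22 (n = 192). Brf1 minus C160 gave -0.39 (n = 194) and Bdp1 minus C160 gave -0.064 (n = 193). Over all features the median change was 0.04 with Bdp1, -0.03 with Brf1, 0.09 with C160 and 0.19 with Tau95. Bdp1 and Brf1 thus lay below C160 and Tau95 there too, so these directions are not particular to delta features. The sign of the C160 median turned to -0.06 with arrays centred on all features, so the last 2 pairs are opposite only with the deposited zero.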

How the results depend on the processing

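No paired analysis was possible because each group holds 1 array. Of 40 alternative values for the medians of level, 40 lay within the 95% binomial interval of the median over features. Of 20 for the medians of change, 16 did. The interval takes features as independent, which pieces of the same region are not, and holds no replicate error. It is wide for levels, so this is a weak check. For Brf1 at 0 min it ran from 1.02 to 1.77, and the median went from 1.29 to 1.57 with equal spread. With equal spread of ORF-named features the Brf1 change was -0.79 and the Tau95 change 0.28. With arrays centred on all features or on ORF-named features the Tau95 change was 0.072 and 0.073, since the median of all features itself differed between its arrays (0.17 at 30 min and 0.05 at 0 min), and the C160 change was -0.06 with both and -0.10 with equal spread. The counts of level moved beyond 1.5 times only with a log2 threshold of 2, to 57 for Brf1 at 30 min, and to 56 at 30 min and 53 at 0 min for Tau95. With a log2 threshold of 0.58 the numbers lower at 30 min were 24 with Bdp1, 79 with Brf1, 31 with C160 and 13 with Tau95, and the numbers higher 15, 15, 17 and 48. With equal spread the numbers lower were 3 with Bdp1, 81 with Brf1, 20 with C160 and 2 with Tau95, and the numbers higher 0 for Bdp1 and 1 for Brf1. The scaling widens or narrows each array by construction, and a lower threshold takes more features. The shares of all features past these cuts were not computed. With no replicates, small changes and the order of neighbouring members carry no error.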

Other observations

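At some delta regions Bdp1 stood well above the other 3 proteins before rapamycin. At 0 min, Bdp1 exceeded the highest of the other 3 values by 1 or more at 21 of 196 delta features (10.7%), against 5.71% of 245 tRNA-named features, 9.78% of 225 ORF-named features with a tRNA gene next and 0.685% of 4961 other ORF-named features. These regions were picked after their values were seen, and the arrays differ in their zero and spread. The delta share was near that of ORF-named features with a tRNA gene next, and the share of all features was not computed. After YELWDELTA5, the excess was largest at YDLCDELTA1-0 (1.97) and YGLWDELTA10 (1.85).

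YDLCDELTA1-0 had 2.61 for Bdp1 at 30 min and 2.89 at 0 min, while Brf1 had 0.10 and 0.92, C160 -0.28 and 0.39 and Tau95 1.37 and 0.55. The other piece of that region, YDLCDELTA1-1, had 2.90 for Bdp1 at 30 min and 2.10 at 0 min and no other value above 1. YELCDELTA4 had 2.99 for Bdp1 at 30 min and 2.70 at 0 min, with 1.20 for Brf1 at 0 min and the other values between -0.38 and 0.21. At these 3 features the Bdp1 excess was thus present at both times, unlike at YELWDELTA5.

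The Brf1 change also differed between arms, with a median of -0.74 over delta features on the left arms and -0.31 on the right arms. This split was seen in the data and not tested.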
